A study of Homo sapiens with 6 samples.

Results

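Aminoacyl-tRNA synthetases are the enzymes that join each amino acid to its transfer RNA (tRNA). Their transcripts were followed in rhabdomyosarcoma cells given an inhibitor of the chaperone HSP70. The genes were taken from a list of 38 names, all of which were found among the 55401 gene names of the files. By their names, 20 encode cytosolic synthetases, 16 with names ending in ARS2 encode mitochondrial ones, and AIMP1 and AIMP2 encode scaffold proteins of the cytosolic multisynthetase complex. All 38 reached a mean of 1 TPM (a length-scaled share of transcripts) in at least 1 group and were tested together with 15148 genes in all.

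Charging a tRNA is the step at which the genetic code is read into amino acids, and cells keep a separate set of enzymes for the ribosomes of the cytosol and for those of mitochondria, nearly all of them encoded by nuclear genes. Several cytosolic synthetases are held with the scaffold proteins in a multisynthetase complex, while others act on their own. In many cell types cytosolic synthetase genes are targets of ATF4, the transcription factor of the integrated stress response, which binds C/EBP-ATF response elements in promoters. GARS and KARS each encode both the cytosolic and the mitochondrial enzyme.

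The cells were RMS13, an established human rhabdomyosarcoma line, and RMS13-R, a line derived from it with acquired resistance to MAL3-101, a small-molecule inhibitor of HSP70. There were 3 groups of 2 RNA libraries, lettered A and B: RMS13 given the vehicle DMSO, RMS13 given MAL3-101 at 10 µM, and RMS13-R given the same dose, each for 9 h. RMS13-R with DMSO was not analysed here, so line and drug cannot be told apart in the resistant group. Nothing in the labels tells if libraries A and B came from different cultures or if RMS13-R is 1 clone, and p-values cover no more than the spread among these libraries.

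The number of reads behind a TPM value cannot be recovered, and counting error is therefore not known. Of 8 muscle-lineage markers, 7 passed the filter on low values, among them MYOD1 and MYOG, the master regulators of muscle, and MYF5 was listed at 0 in all 6 libraries. In resistant against parental MAL3-101 cells 3 of these 7 were higher and 3 lower, where 21.3% of all tested genes were called higher and 34.8% lower. The log2 fold changes were -2.60 for CHRNA1, -0.96 for FGFR4, 0.61 for PAX3 and 0.57 for DES. With MAL3-101 in parental cells 1 of the 7 rose and 2 fell, where 22.6% of all tested genes rose and 18.2% fell. Markers of leukocytes, endothelium and epithelium, 10 in number, summed to between 4.35 and 6.72 TPM in parental libraries and to 0.64 TPM in both resistant ones. In parental libraries most of this was EPCAM, an epithelial gene, which stood at 3.50 to 6 TPM in parental and at 0.19 to 0.23 TPM in resistant libraries. The leukocyte marker PTPRC stood at 0.06 TPM or less, and the keratin gene KRT5 was listed at 0 throughout. Ribosomal RNA of the mitochondrial genome took 0.533% and 0.565% of TPM with DMSO, 1.92% and 1.97% when parental cells had MAL3-101, and 0.784% and 0.767% for the resistant line. All 3 sets of values move with the groups compared below, and their part in the results was not tested, except that without genes of the mitochondrial genome the median log2 fold change of cytosolic synthetases with MAL3-101 in parental cells was again 0.74. Over all tested genes, 6181 were called with MAL3-101 in parental cells and 3158 without parental MAL3-101 library A, and 7662 in resistant cells against DMSO and 4955 without resistant library A. In bulk RNA, fewer cells of a type and less RNA per cell cannot be told apart.

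The sequences shown first are those in which 8 of these genes carry the core letters of a C/EBP-ATF response element, TGATGNAA, near their start sites. RefSeq on GRCh38.p14 gave promoters of 300 bases, 250 before and 50 after each start site, for 32 of the 38 genes, in 44 windows; DARS, LARS, VARS, YARS, AARS2 and VARS2 had no entry. Each stretch is written 5′ to 3′ on the gene's own strand, with the 8 bases that match TGATGNAA on either strand in capitals and 11 bases on each side.
CARS (chr11:3057407-3057436, minus strand): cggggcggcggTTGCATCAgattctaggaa
MARS (chr12:57488053-57488082, plus strand): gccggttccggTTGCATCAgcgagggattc
IARS (chr9:92293692-92293721, minus strand): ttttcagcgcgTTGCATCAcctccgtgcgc
TARS (chr5:33440956-33440985, plus strand): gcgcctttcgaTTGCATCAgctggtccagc
NARS (chr18:57621804-57621833, minus strand): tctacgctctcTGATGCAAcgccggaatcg
GARS (chr7:30594834-30594863, plus strand): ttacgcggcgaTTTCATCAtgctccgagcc
AARS (chr16:70289675-70289704, minus strand): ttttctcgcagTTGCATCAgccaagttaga
YARS2 (chr12:32756076-32756105, minus strand): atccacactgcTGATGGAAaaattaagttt
The match began 2, 4 and 13 bases before the start site in CARS, MARS and IARS, and 2 and 14 bases after it in TARS and NARS. In GARS it began 33 bases before the start site, in the second of its windows, and in AARS and YARS2 187 and 197 bases before.

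Of cytosolic synthetase genes with a promoter entry, 7 of 16 held TGATGNAA, against 1 of 14 mitochondrial ones, YARS2, and 0 of the 2 scaffold genes. Among all genes with an entry, 1217 of 27305, or 4.46%, held it. TGATGCAA, the form with C at the free position and a subset of TGATGNAA, stood in 6 of the 16 cytosolic genes, 0 of the 14 mitochondrial ones and 1.08% of all genes. CACGTG, the E-box, was found on either strand in the cytosolic gene IARS, in the mitochondrial genes CARS2, EARS2 and MARS2 and in AIMP2, against 8.77% of all genes. CGCATGCG, the core bound by the factor NRF1, was found in MARS2 and in no other of the 32 genes with an entry, against 2.46% of all genes. A match is a description of letters in this window and not a measured binding site. Apart from that subset, matches of different motifs did not overlap in these genes.

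With MAL3-101, transcripts of most cytosolic synthetases rose in parental cells. Mitochondrial ones were called in both directions, at shares near those of all tested genes. Of 20 cytosolic genes, 13 rose, 2 fell (HARS and VARS) and 5 did not pass the test, where 22.6% of all tested genes were called higher and 18.2% lower. With upper-quartile scaling the calls over all genes turned from 3429 higher and 2752 lower to 2991 and 3413, while 13 cytosolic genes again rose and 2 fell. The median log2 fold change of the 20, on the log2(TPM + 1) scale used throughout, was 0.74, and the single values ran from -0.28 to 2.04, beside a median of 0.02 over all tested genes. Of 16 mitochondrial genes, 3 rose, 3 fell and 10 did not pass the test, with a median of -0.08 and a range of -0.63 to 0.43. The calls made up 18.8% of the 16 in each direction, near the shares of all tested genes. A 2-fold rise or more was measured for 9 of the 20 cytosolic genes and for 0 of the 16 mitochondrial ones. GARS, among the 9, encodes both the cytosolic and the mitochondrial enzyme, and TPM per gene does not separate the forms. Calls are from limma's test with Benjamini-Hochberg adjusted p under 0.05.

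**Figure D1:**
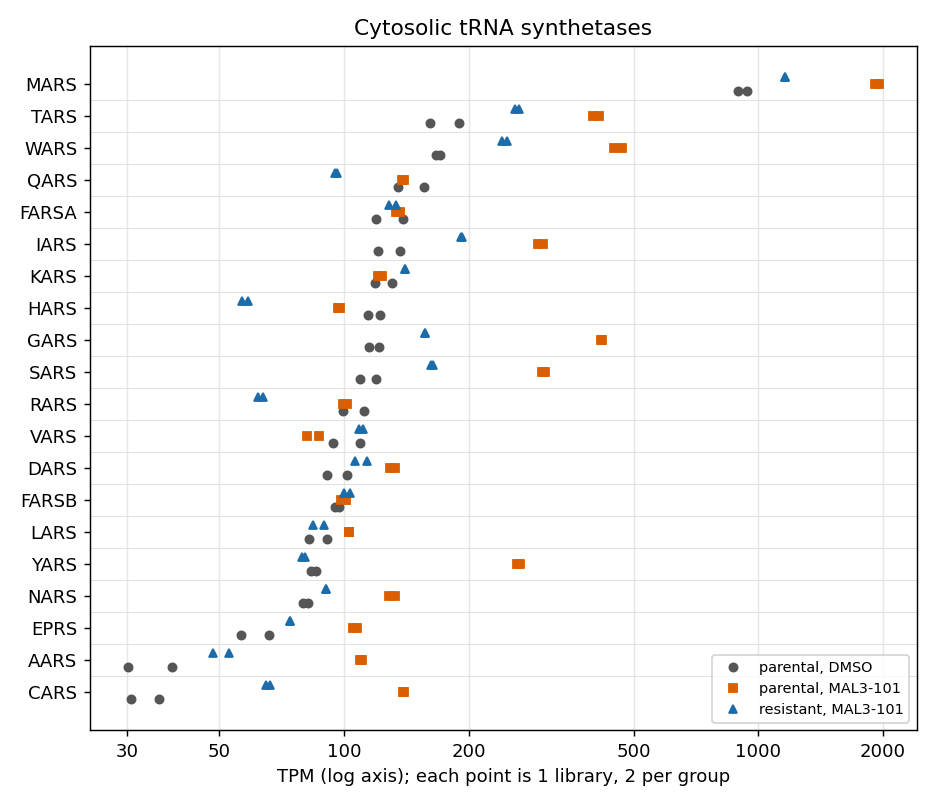
Levels of the 20 cytosolic synthetase genes in TPM on a log axis, 1 point per library and 2 libraries per group, sorted by the DMSO mean. MARS lies apart on the right at 892 to 1956 TPM, and for CARS, GARS, AARS and YARS the parental MAL3-101 libraries lie far to the right of the other 4.

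CARS, which charges cysteine tRNA, had the largest rise. It stood at 35.7 and 30.6 TPM with DMSO, at 139 and 139 TPM in parental cells with MAL3-101 and at 66.2 and 64.7 TPM in resistant cells with MAL3-101. Resistant libraries lay between the other groups, with no overlap. The log2 fold change of parental MAL3-101 against DMSO was 2.04 (SE 0.07, adjusted p = 6.43e-06), that of resistant against parental MAL3-101 was -1.08 (SE 0.07, adjusted p = 3.8e-05), and that of resistant MAL3-101 against DMSO was 0.96 (SE 0.07, adjusted p = 7.15e-05). GARS, the glycine enzyme, stood at 121 and 115 TPM with DMSO, 419 and 418 TPM with MAL3-101 in parental cells and 157 and 157 TPM in resistant cells. It rose with MAL3-101 by 1.82 log2 units (SE 0.05, adjusted p = 1.08e-06), and in resistant cells it was lower than in parental MAL3-101 cells, at -1.41 (SE 0.05, adjusted p = 2.08e-06). Against DMSO its resistant libraries were higher by 0.41 log2 units (SE 0.05, adjusted p = 0.000352). AARS, the alanine enzyme, stood at 38.4 and 30.01 TPM, 110.2 and 109 TPM and 48.2 and 52.7 TPM in the same order of groups, and rose with MAL3-101 by 1.66 log2 units (SE 0.11, adjusted p = 8.73e-05). Its 2 DMSO libraries differed by 24.5% of their mean, the widest gap of a cytosolic gene in that group.

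YARS, the tyrosine enzyme, stood at 85.7 and 83.03 TPM with DMSO, 261 and 265 TPM in parental MAL3-101 libraries and 80.5 and 79.4 TPM in resistant ones. Both resistant libraries lay below both DMSO libraries, yet that difference did not pass the test, at -0.08 log2 units (SE 0.05, adjusted p = 0.195). Against parental MAL3-101 cells YARS had the largest difference of the 38 genes, -1.71 log2 units (SE 0.05, adjusted p = 1.31e-06), after a rise of 1.63 (SE 0.05, adjusted p = 1.83e-06) with MAL3-101 in parental cells. Of the 9 cytosolic genes with a 2-fold rise, YARS was the one whose resistant libraries were not called higher than DMSO. YARS shares 396 exon bases with S100PBP on the opposite strand in GENCODE release 29.

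The other genes that rose 2-fold or more were WARS, SARS, IARS, TARS and MARS, for tryptophan, serine, isoleucine, threonine and methionine. WARS stood at 167 and 171 TPM with DMSO, 447 and 468 TPM in parental MAL3-101 libraries and 247 and 241 TPM in resistant ones, a rise of 1.43 log2 units (SE 0.04, adjusted p = 3.08e-06) in parental cells. SARS stood at 119.7 and 109 TPM, 301 and 305 TPM and 163 and 164 TPM in the same order and rose by 1.40 log2 units (SE 0.05, adjusted p = 8.45e-06). In both genes the resistant pair lay between the other pairs without overlap, at 0.53 and 0.51 against DMSO on the log2 scale. IARS stood at 136 and 121 TPM with DMSO, 302 and 294 TPM with MAL3-101 and 193 and 192 TPM in resistant cells, a rise of 1.21 log2 units (SE 0.06, adjusted p = 2.81e-05). TARS stood at 189.7 and 161 TPM, 413 and 399 TPM and 258 and 264 TPM and rose by 1.21 log2 units (SE 0.08, adjusted p = 6.89e-05). For IARS and TARS the resistant libraries again held a middle place, 0.58 above DMSO on the log2 scale in each.

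MARS, the methionine enzyme, had by far the highest level of the 38 genes per transcript, and TPM is scaled by length so that genes can be compared. It stood at 892 and 938 TPM with DMSO, 1912 and 1956 TPM in parental MAL3-101 libraries and 1163 and 1157 TPM in resistant ones. The next cytosolic gene with DMSO was TARS, at a mean of 175 TPM, and the lowest was CARS, at 33.2 TPM. MARS rose with MAL3-101 by 1.08 log2 units (SE 0.05, adjusted p = 1.23e-05) and was lower in resistant than in parental MAL3-101 cells, at -0.74 (SE 0.05, adjusted p = 2.4e-05). MARS shares 355 exon bases with DDIT3 and 519 with ARHGAP9, both on the opposite strand, and whether counting used strand is not given in the sources used here. DDIT3 stood at 132 and 128 TPM, 2260.1 and 2313 TPM and 370.2 and 401 TPM in the 3 groups. The summed level of the other cytosolic genes, without MARS, was 2028 and 1977 TPM with DMSO, 3637 and 3651 TPM with MAL3-101 and 2268 and 2279 TPM in resistant cells, the same order of groups.

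Smaller rises were found for EPRS, NARS, DARS and LARS. EPRS, which charges both glutamate and proline tRNAs, stood at 65.8 and 56.4 TPM with DMSO and 105 and 107 TPM with MAL3-101 and rose by 0.79 log2 units (SE 0.07, adjusted p = 0.000392). NARS, the asparagine enzyme, stood at 79.4 and 81.9 TPM and 133 and 129 TPM and rose by 0.69 log2 units (SE 0.05, adjusted p = 0.000108). In both genes the 2 MAL3-101 libraries lay above the DMSO ones. DARS, the aspartate enzyme, stood at 102 and 90.8 TPM with DMSO and 133 and 129 TPM with MAL3-101, a rise of 0.44 log2 units (SE 0.07, adjusted p = 0.00251). LARS, the leucine enzyme, stood at 90.7 and 82.3 TPM and 103 and 103 TPM, a rise of 0.25 log2 units (SE 0.06, adjusted p = 0.0178). The call for LARS was lost without either parental MAL3-101 library, at adjusted p of 0.0962 and 0.0978.

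The cytosolic genes that did not rise were HARS, VARS, KARS, QARS, RARS, FARSA and FARSB. HARS, the histidine enzyme, fell with MAL3-101 from 114 and 122 TPM to 96.9 and 97.9 TPM, a log2 change of -0.28 (SE 0.05, adjusted p = 0.00661), and stood at 58.5 and 56.6 TPM in resistant cells. Without parental MAL3-101 library A the call was lost, at an adjusted p of 0.0582. VARS, the valine enzyme, fell from 93.8 and 109 TPM to 81.2 and 86.9 TPM, a log2 change of -0.26 (SE 0.08, adjusted p = 0.0304), and its resistant libraries, at 111 and 109 TPM, lay above both parental MAL3-101 libraries. That fall was lost when either parental MAL3-101 library was left out, with adjusted p of 0.178 without A and 0.0781 without B, and also without a resistant library, at 0.0686 and 0.0675. Of the subunits of the phenylalanine enzyme, FARSA stood between 119 and 139 TPM and FARSB between 95.2 and 104 TPM in all 6 libraries, and neither passed the test in any of the 3 comparisons. KARS, the lysine enzyme, stood at 119 and 131 TPM with DMSO and 123 and 121 TPM with MAL3-101, a difference of -0.03 log2 units (SE 0.06, adjusted p = 0.701).

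Among these genes with a promoter entry, 7 of the 10 cytosolic genes that rose held TGATGNAA, and 0 of the 6 that did not rise. Over all genes with an entry the share was 4.46%. TGATGNAA stood in 6 of the 8 genes with a 2-fold rise or more, namely AARS, CARS, GARS, IARS, MARS and TARS. It was not in SARS or WARS, and of the other 8 genes 1, NARS, held it. The 10 genes that rose had 15 windows and the 6 others had 6, so the length searched was unequal. The genes were split by calls in these same data, and a link between these letters and the rise was not tested. The stretches printed above are thus those of genes that rose, apart from YARS2, which stood at 20.02 and 22.6 TPM with DMSO and 20.3 and 20.5 TPM with MAL3-101. Reference genes of the integrated stress response rose in parental cells as well, and whether ATF4 acts on the synthetase genes here was not tested. ATF4 rose by 1.39 log2 units (SE 0.04, adjusted p = 2.83e-06), ASNS, the asparagine synthetase gene, by 3.35 (SE 0.19, adjusted p = 4.87e-05), and DDIT3, which encodes the factor CHOP, by 4.12 (SE 0.05, adjusted p = 1.17e-07). In resistant cells the 3 were lower than in parental MAL3-101 cells, at -0.38, -1.77 and -2.57 on the log2 scale, and above DMSO at 1.01, 1.58 and 1.56.

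The cytosolic synthetases were also described by their place in the multisynthetase complex and by their structural class. Of the 8 synthetases of the complex (DARS, EPRS, IARS, KARS, LARS, MARS, QARS and RARS), 5 rose with MAL3-101 and 0 fell, with a median of 0.34, and 2 rose 2-fold or more, IARS and MARS. Of the 12 outside the complex, 8 rose and 2 fell, with a median of 1.30, and 7 rose 2-fold or more. Of the 10 class I enzymes 7 rose, with a median of 0.94, and of the 10 class II enzymes 6 rose, with a median of 0.57. EPRS, which charges both glutamate and proline tRNAs, was counted in class I only. These splits were not tested against one another. Over all tested genes, 22.6% rose with MAL3-101 in parental cells and 18.2% fell. Of the scaffold genes, AIMP2 stood at 68.9 and 69.8 TPM with DMSO and 81.03 and 88.1 TPM with MAL3-101 and rose by 0.28 log2 units (SE 0.06, adjusted p = 0.00817), a call lost without parental MAL3-101 library B, at an adjusted p of 0.0729. AIMP1 stood at 44.6 and 47.4 TPM and 50.2 and 50.8 TPM, a difference of 0.13 log2 units (SE 0.06, adjusted p = 0.123).

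**Figure D2:**
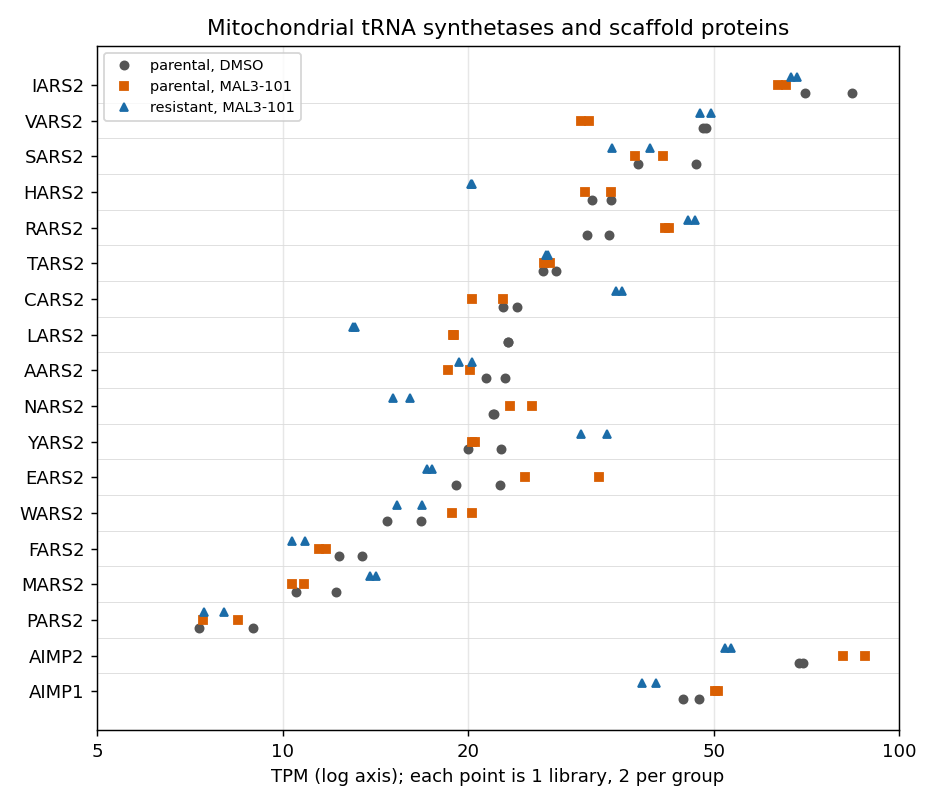
Levels of the 16 mitochondrial synthetase genes and of the scaffold genes AIMP1 and AIMP2 in TPM on a log axis, 1 point per library and 2 libraries per group. For most genes the parental MAL3-101 and DMSO points lie side by side, VARS2 is lower with MAL3-101, and the resistant points lie to the right for CARS2 and YARS2 and to the left for LARS2, HARS2 and NARS2.

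Mitochondrial synthetases were expressed at lower levels than cytosolic ones. Summed over the 16 genes, the level was 441 ± 3.28 TPM (SD, n = 2) for DMSO, 419 ± 15.8 TPM with MAL3-101 in parental cells and 428 ± 7.37 TPM in resistant cells, whereas that of cytosolic genes was 2917 ± 3.43, 5578 ± 40.8 and 3434 ± 3.73 TPM. The small cytosolic SD with DMSO comes from differences that cancel, as single cytosolic genes differed by a median of 10.6% between libraries A and B. MARS stood at 892 TPM in A and 938 in B, and the other cytosolic genes summed to 2028 and 1977 TPM. With DMSO, single mitochondrial genes ran from a mean of 8.13 TPM for PARS2, the proline enzyme, to 77.1 TPM for IARS2, the isoleucine enzyme. The largest mitochondrial difference with MAL3-101 was in VARS2, the mitochondrial valine enzyme. VARS2 stood at 48.05 and 48.6 TPM with DMSO, 30.5 and 31.4 TPM in parental MAL3-101 libraries and 47.6 and 49.5 TPM in resistant ones. It fell with MAL3-101 with a log2 change of -0.63 (SE 0.06, adjusted p = 0.00035) and its resistant libraries overlapped those with DMSO, with a log2 change of 0.01 (SE 0.06, adjusted p = 0.928). VARS2 shares 1858 exon bases with GTF2H4 on the same strand, so reads could be divided between the genes.

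The other mitochondrial calls with MAL3-101 were smaller. RARS2, the arginine enzyme, rose from 33.8 and 31.2 TPM to 42.3 and 41.8 TPM, by 0.36 log2 units (SE 0.06, adjusted p = 0.00424), and stood at 45.5 and 46.6 TPM in resistant cells. EARS2, the glutamate enzyme, rose from 22.5 and 19.1 TPM to 24.7 and 32.6 TPM, by 0.43 log2 units (SE 0.14, adjusted p = 0.0389). WARS2, the tryptophan enzyme, rose from 14.8 and 16.8 TPM to 18.8 and 20.3 TPM, by 0.30 log2 units (SE 0.10, adjusted p = 0.0438). In these 3 genes both MAL3-101 libraries lay above both DMSO libraries. LARS2, the leucine enzyme, fell from 23.2 and 23.2 TPM to 18.9 and 18.97 TPM, by 0.28 log2 units (SE 0.07, adjusted p = 0.0185). IARS2 fell from 83.8 and 70.4 TPM to 63.5 and 65.6 TPM, by 0.25 log2 units (SE 0.08, adjusted p = 0.0481). In LARS2 and IARS2 both MAL3-101 libraries lay below both DMSO libraries. The calls for EARS2, WARS2, LARS2 and IARS2 were lost without parental MAL3-101 library B or either resistant library, and those for WARS2, LARS2 and IARS2 also without parental MAL3-101 library A. EARS2 was lost without DMSO library B, and WARS2 and IARS2 without DMSO library A. Over these losses the adjusted p ran from 0.0774 to 0.22 for EARS2, from 0.0807 to 0.222 for WARS2, from 0.0518 to 0.105 for LARS2 and from 0.0618 to 0.205 for IARS2.

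The remaining 10 mitochondrial genes did not pass the test with MAL3-101. They were AARS2, CARS2, FARS2, HARS2, MARS2, NARS2, PARS2, SARS2, TARS2 and YARS2, and their log2 fold changes lay between -0.19 for AARS2 and 0.14 for NARS2. TARS2, the threonine enzyme, had the narrowest range of them, between 26.4 and 27.8 TPM in all 6 libraries.

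**Figure D3:**
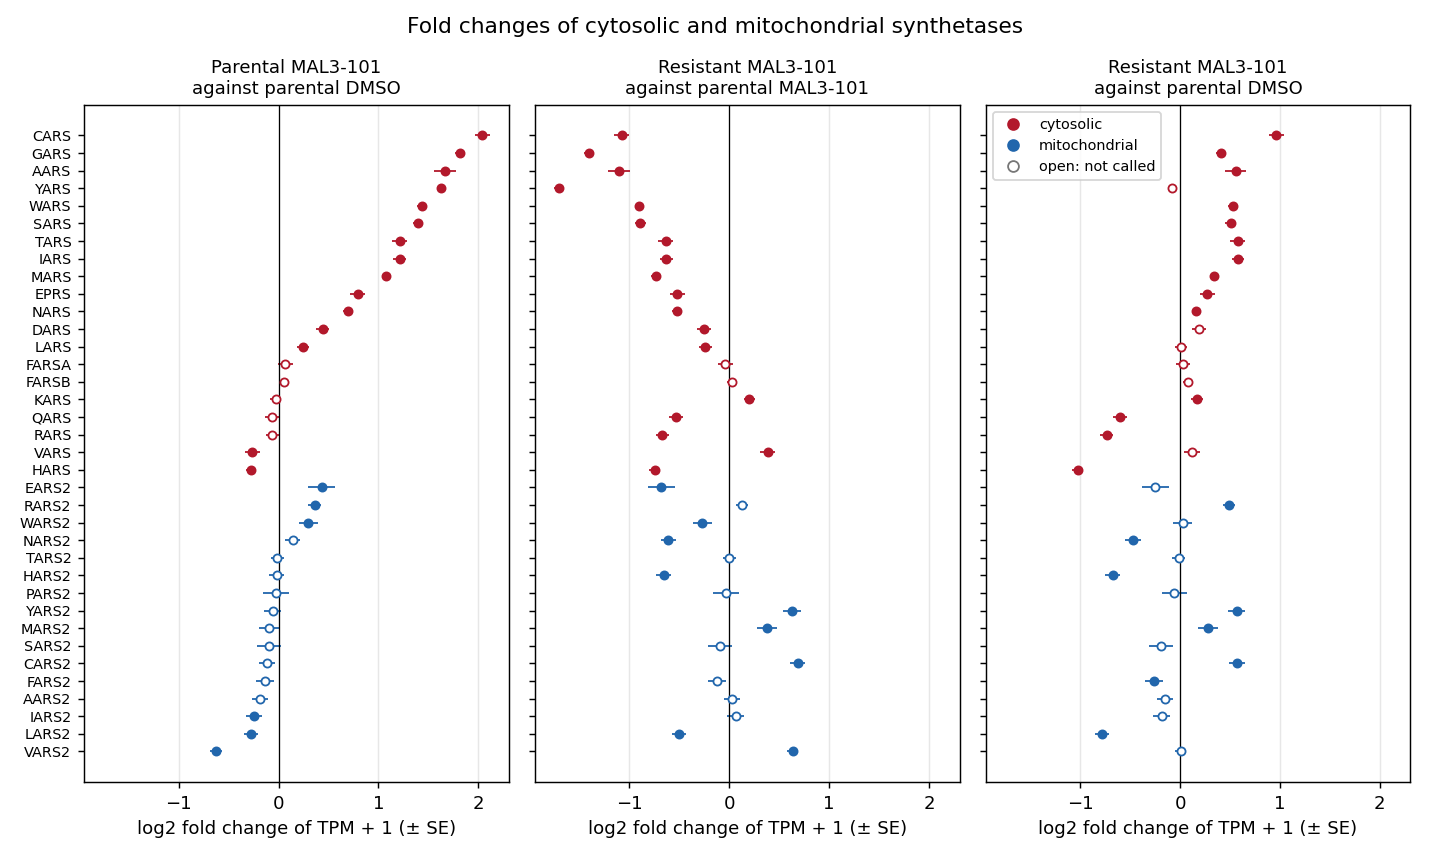
Log2 fold changes on the log2(TPM + 1) scale with their SE for the 36 synthetases, red for cytosolic and blue for mitochondrial, filled where the adjusted p was under 0.05 and open where not. In the left panel the cytosolic genes spread from -0.28 to 2.04 and the mitochondrial ones from -0.63 to 0.43; in the middle panel 16 of the 20 cytosolic genes are called to the left of 0.

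In resistant cells with MAL3-101, most cytosolic synthetases were lower than in parental cells with MAL3-101. Of the 20 genes, 16 were lower, 2 higher (VARS and KARS) and 2 did not pass the test (FARSA and FARSB), where 34.8% of all tested genes were called lower and 21.3% higher. Their median log2 fold change was -0.63, with a range of -1.71 to 0.38, beside a median of -0.10 over all tested genes. Of the 16 mitochondrial genes 4 were higher, 5 lower and 7 did not pass, with a median of -0.02. Upper-quartile scaling moved the median of all genes by 0.11 in this comparison. It turned the split of all calls from 3228 higher and 5267 lower to 4348 and 4232, and median-ratio scaling turned it to 4236 and 4358. Under these scalings the cytosolic median was -0.51 and -0.52 and 14 genes were lower, while the mitochondrial median was 0.10 and 0.09, on the other side of 0.

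The genes with a 2-fold difference or more were YARS, GARS, AARS and CARS, all given above and all 2-fold higher with MAL3-101 in parental cells. HARS, QARS and RARS, which did not rise with MAL3-101 in parental cells, were also lower in resistant cells. QARS, the glutamine enzyme, stood at 156 and 135 TPM with DMSO, 138 and 139 TPM in parental MAL3-101 libraries and 94.98 and 95.9 TPM in resistant ones. RARS, the cytosolic arginine enzyme, stood at 99.2 and 112 TPM, 99.4 and 102 TPM and 61.9 and 63.6 TPM in the same order. For both genes the parental groups overlapped and the resistant libraries lay below all 4 parental ones. The log2 fold change of resistant against parental MAL3-101 cells was -0.54 (SE 0.07, adjusted p = 0.000587) for QARS, -0.67 (SE 0.06, adjusted p = 0.000151) for RARS and -0.75 (SE 0.05, adjusted p = 4.52e-05) for HARS. In the opposite direction, VARS was higher in resistant than in parental MAL3-101 cells, by 0.38 log2 units (SE 0.08, adjusted p = 0.00443), and KARS, at 140.1 and 141 TPM, was higher by 0.20 (SE 0.06, adjusted p = 0.0198). The KARS call was lost without any 1 of the 4 MAL3-101 libraries, with adjusted p between 0.0792 and 0.111.

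Within the complex, 7 of 8 synthetases were lower and 1, KARS, was higher in resistant than in parental MAL3-101 cells, with a median of -0.53. Outside it, 9 of 12 were lower and 1 higher, with a median of -0.82. Over all tested genes 34.8% were called lower and 21.3% higher in this comparison. AIMP1, at 40.4 and 38.3 TPM in resistant cells, was lower, at -0.35 log2 units (SE 0.06, adjusted p = 0.00224). AIMP2, at 52.2 and 53.4 TPM, was lower, at -0.67 log2 units (SE 0.06, adjusted p = 9.51e-05). Both were also lower than with DMSO, at -0.22 and -0.39 on the log2 scale, and the AIMP1 call was lost without either resistant library, at adjusted p of 0.0632 and 0.15. Of the rising genes, DARS and LARS had the smallest differences, -0.25 and -0.24. Their calls were lost without either parental MAL3-101 library, DARS also without resistant library A and LARS without resistant library B, with adjusted p of 0.063 to 0.121 for DARS and 0.0749 to 0.114 for LARS.

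Against parental cells with DMSO, resistant cells with MAL3-101 had higher levels of 11 cytosolic synthetases. This comparison shares libraries with both of the others, so its values are not independent of them. Besides these 11 of 20 genes, 3 were lower (HARS, QARS and RARS) and 6 did not pass the test, with a median of 0.18 and a range of -1.02 to 0.96, where 20.9% of all tested genes were called higher and 29.7% lower, with a median of -0.06. The excess of lower calls over all genes, 4502 against 3160 higher, was not seen with other scalings, which gave 3987 higher and 3843 lower by median ratio and 3880 and 3927 by upper quartile. Under both of these 13 cytosolic genes were higher and 3 lower. CARS, at a log2 fold change of 0.96, had the largest rise and no cytosolic gene reached 2-fold higher. HARS had the largest difference in the other direction, -1.02 log2 units (SE 0.05, adjusted p = 1.79e-05), followed by -0.74 (SE 0.06, adjusted p = 0.000126) for RARS and -0.60 (SE 0.07, adjusted p = 0.000418) for QARS. The weakest of the 11 were EPRS, KARS and NARS, at 0.27, 0.17 and 0.16. Their calls were lost without either resistant library, KARS and NARS also without either parental MAL3-101 library. The adjusted p was then 0.096 to 0.0975 for EPRS, 0.0805 to 0.169 for KARS and 0.0542 to 0.135 for NARS.

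HARS and HARS2, the cytosolic and mitochondrial histidine enzymes, are neighbours on chromosome 5 with opposite strands. Their RefSeq start sites have 84 bases between them, and in GENCODE release 29 they share 437 exon bases. HARS2 stood at 34.1 and 31.8 TPM with DMSO, 30.9 and 34.1 TPM in parental MAL3-101 libraries and 20.3 and 20.2 TPM in resistant ones. It was lower in resistant than in parental MAL3-101 cells, at -0.66 (SE 0.07, adjusted p = 0.000329), where the log2 fold change of HARS was -0.75. Against DMSO the log2 fold changes were -0.68 for HARS2 and -1.02 for HARS. Reads from the shared bases cannot be assigned to 1 of these genes if counting did not use strand.

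Among the 16 mitochondrial synthetases, 4 were higher and 4 lower in resistant cells than in parental cells with DMSO, with a median of -0.11, and 8 did not pass the test. These are 25% each, near the 20.9% higher and 29.7% lower over all tested genes. Against parental MAL3-101 cells the 4 higher genes were CARS2, YARS2, MARS2 and VARS2, the last at 0.63 log2 units (SE 0.06, adjusted p = 0.000112) after its fall in parental cells. CARS2, the mitochondrial cysteine enzyme, stood at 23.99 and 22.8 TPM with DMSO, 20.3 and 22.8 TPM in parental MAL3-101 libraries and 34.8 and 35.5 TPM in resistant ones. YARS2, the tyrosine enzyme, stood at 33.6 and 30.5 TPM in resistant libraries, and MARS2, the methionine enzyme, at 10.5 and 12.2 TPM with DMSO, 10.8 and 10.3 TPM in parental MAL3-101 libraries and 13.8 and 14.2 TPM in resistant ones. For these 3 genes both resistant libraries lay above all 4 parental libraries. The log2 fold change against parental MAL3-101 cells was 0.68 (SE 0.08, adjusted p = 0.000323) for CARS2, 0.63 (SE 0.09, adjusted p = 0.000757) for YARS2 and 0.37 (SE 0.10, adjusted p = 0.0154) for MARS2. The MARS2 call was lost without any 1 of the 4 MAL3-101 libraries, with adjusted p between 0.0611 and 0.0982. Against DMSO the log2 fold change was 0.57 for CARS2, 0.57 for YARS2 and 0.28 for MARS2. The last of these calls was lost without any 1 of the 4 MAL3-101 libraries or DMSO library A, with adjusted p between 0.0888 and 0.207. RARS2 was higher than with DMSO, by 0.49 log2 units (SE 0.06, adjusted p = 0.000694), and did not pass the test against parental MAL3-101 cells, at 0.13 (SE 0.06, adjusted p = 0.121).

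LARS2, NARS2 and HARS2 were lower in resistant cells than in both parental groups. LARS2 stood at 13.1 and 13.02 TPM in resistant libraries, -0.50 log2 units (SE 0.07, adjusted p = 0.00088) against parental MAL3-101 cells and -0.78 (SE 0.07, adjusted p = 0.000149) against DMSO. NARS2, the asparagine enzyme, stood at 21.9 and 22.04 TPM with DMSO, 25.4 and 23.4 TPM in parental MAL3-101 libraries and 16.1 and 15.1 TPM in resistant ones, -0.61 log2 units (SE 0.08, adjusted p = 0.000535) against the parental MAL3-101 cells. In each of the 3 genes both resistant libraries lay below all 4 parental ones. EARS2, at 17.1 and 17.5 TPM in resistant cells, was lower than with MAL3-101 in parental cells, at -0.68 log2 units (SE 0.14, adjusted p = 0.00432), and did not pass the test against DMSO. FARS2, the phenylalanine enzyme, stood between 10.3 and 13.4 TPM in all 6 libraries and was lower in resistant cells than with DMSO, at -0.26 log2 units (SE 0.09, adjusted p = 0.0495). WARS2 was lower than in parental MAL3-101 cells, at -0.27 log2 units (SE 0.10, adjusted p = 0.0467). Both calls were lost without any 1 of the 4 MAL3-101 libraries, and that of FARS2 also without DMSO library B, with adjusted p of 0.0939 to 0.233 for FARS2 and 0.0898 to 0.248 for WARS2. AARS2, SARS2, PARS2 and TARS2 passed the test in none of the 3 comparisons. Exon bases are also shared with a gene on the opposite strand by SARS2 (MRPS12, 349 bases; it also shares 1492 with AC011455.2 on its own strand), CARS2 (ING1, 326), EARS2 (UBFD1, 370), AARS2 (TMEM151B, 235), WARS (WDR25, 287), KARS (TERF2IP, 176), AIMP1 (TBCK, 387) and AIMP2 (EIF2AK1, 532).

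Taking the enzymes for the same amino acid as pairs, the ratio of cytosolic to mitochondrial TPM was computed within each library for the 13 amino acids with 1 gene of each kind in the list. Such a ratio does not depend on the scaling of a library. Both parental MAL3-101 libraries had higher ratios than both DMSO libraries in 11 of 13 pairs and lower ones in 2, HARS with HARS2 and RARS with RARS2. Resistant libraries had lower ratios than parental MAL3-101 libraries in 10 pairs and higher ones in 2, LARS with LARS2 and NARS with NARS2, and for HARS with HARS2 the groups overlapped. These ratios are given as a description and were not tested. Ratios of other gene pairs were not computed, so how often 2 groups of 2 libraries separate in such ratios is not known.

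**Figure D4:**
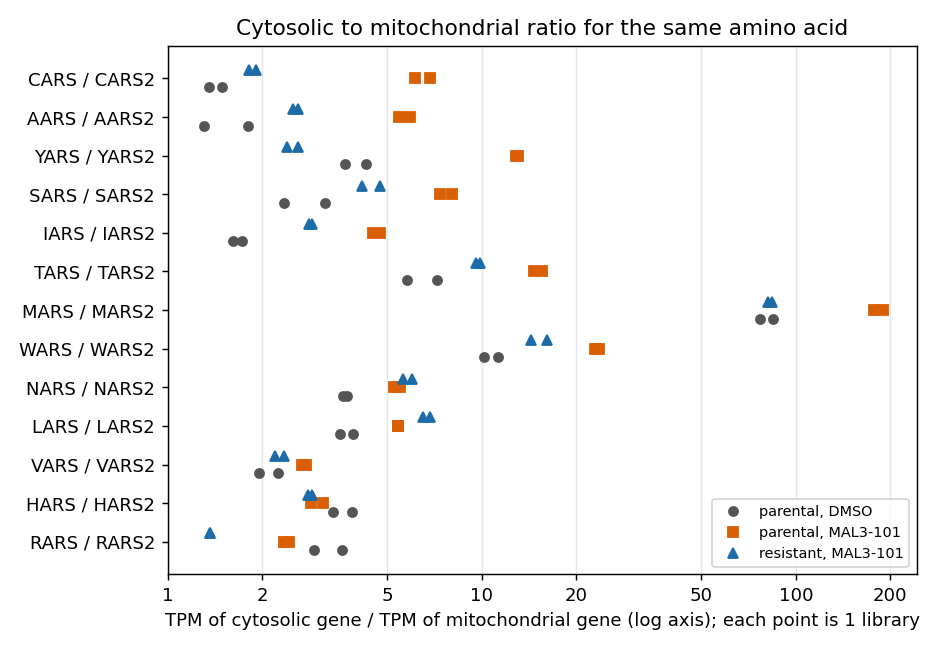
Ratio of cytosolic to mitochondrial TPM for the same amino acid on a log axis, 1 point per library and 2 libraries per group, sorted by the difference between parental MAL3-101 and DMSO. The parental MAL3-101 points lie to the right of the DMSO points in 11 of the 13 pairs, and the MARS pair stands apart at 76.7 to 189.

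The cysteine pair had the largest difference between parental MAL3-101 and DMSO libraries. CARS to CARS2 stood at 1.49 and 1.35 with DMSO, 6.84 and 6.13 in parental MAL3-101 libraries and 1.91 and 1.82 in resistant ones. YARS to YARS2 stood at 4.28 and 3.67, 12.9 and 13.0, and 2.40 and 2.60 in the same order, so that the resistant ratios lay below the DMSO ones. RARS to RARS2 went from 2.93 and 3.58 with DMSO to 2.35 and 2.44 in parental MAL3-101 libraries and 1.36 and 1.36 in resistant ones. The 3 groups did not overlap in that ratio. LARS to LARS2 went the other way, with 3.90 and 3.55, 5.42 and 5.42, and 6.83 and 6.48 in the 3 groups. In the valine pair both genes were lower with MAL3-101 in parental cells, and VARS to VARS2 went from 1.95 and 2.25 to 2.67 and 2.76. In the methionine pair the ratio was 84.8 and 76.7 with DMSO, 177 and 189 with MAL3-101 in parental cells, and 84.0 and 81.5 in resistant cells.

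Other genes of tRNA charging and handling were taken from a separate list, which also holds the synthetase-like gene TARSL2 and the complex's scaffold gene EEF1E1. Of 16 such genes tested, 5 rose with MAL3-101 in parental cells, 2 fell and 9 did not pass, with a median of 0.10; these are 31.2% and 12.5% of the list, beside 22.6% and 18.2% of all tested genes. XPOT, which exports tRNA from the nucleus, stood at 70.1 and 65.9 TPM with DMSO, 152 and 141 TPM in parental MAL3-101 libraries and 60.2 and 57.96 TPM in resistant ones. It rose with MAL3-101 by 1.10 log2 units (SE 0.06, adjusted p = 4.01e-05), the one 2-fold rise of the 16, and its resistant libraries lay below both parental groups. PSTK and SEPSECS, which act in making selenocysteine on its tRNA, rose by 0.69 log2 units (SE 0.14, adjusted p = 0.00719) and 0.52 (SE 0.14, adjusted p = 0.0227), and QRSL1, a subunit of the mitochondrial glutamine amidotransferase, by 0.67 (SE 0.08, adjusted p = 0.000867). ELAC2, a tRNA 3′ processing enzyme, fell by 0.47 log2 units (SE 0.05, adjusted p = 0.00054), and MTFMT, the mitochondrial methionyl-tRNA formyltransferase, fell by 0.38 (SE 0.11, adjusted p = 0.0257). In resistant against parental MAL3-101 cells 5 of the 16 were lower and 1 higher, and 31.2% lower lies near the 34.8% of all tested genes. In resistant cells against DMSO 6 were lower and 2 higher, where 29.7% and 20.9% of all tested genes were.

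Translation factors were taken as the steps after charging. Of 9 mitochondrial translation factors, 4 rose with MAL3-101 in parental cells and 1 fell, with a median of 0.21, beside 22.6% higher and 18.2% lower over all tested genes. MRRF, MTRF1L, MTIF2 and GFM2, which act in ribosome recycling, release and initiation, rose by 0.68, 0.62, 0.50 and 0.42 on the log2 scale. TUFM, the mitochondrial elongation factor Tu, fell by 0.42 log2 units (SE 0.07, adjusted p = 0.00316). All 5 were lower in resistant than in parental MAL3-101 cells, from -0.78 for MRRF to -0.20 for TUFM, and 1 factor, TSFM, was higher. Of 8 cytosolic elongation and release factors, 2 rose with MAL3-101, 3 fell and 3 did not pass, against the same background. EEF2, the translocation factor of the ribosome, rose by 0.43 log2 units (SE 0.04, adjusted p = 0.000498), and EIF5A fell by 0.61 (SE 0.10, adjusted p = 0.00311). In resistant against parental MAL3-101 cells 3 of these 8 were higher and 3 lower, beside 21.3% and 34.8% of all tested genes. The release factor genes ETF1 and GSPT1 were lower, at -0.93 and -0.43, and EIF5A and EEF1D were higher, each at 0.29.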

How the data were processed

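The 6 deposited tables give TPM for each gene name. Per the submitters' processing notes the authors used RSEM, DESeq and hg19; versions, aligner, annotation and strand were not given in the sources used here. Samples were grouped by the label descriptions, because titles of the DMSO samples name the drug too. The filter kept 15148 genes whose mean reached 1 TPM in a group. Values were taken as log2(TPM + 1), which understates changes of low genes. Group means were fitted by limma 3.58.1 in R 4.3.3 on the 6 libraries together, with a trend in the variance (3 residual and 4.17 prior degrees of freedom, median SE 0.105). P-values were adjusted by Benjamini-Hochberg over all tested genes and called under 0.05, and the fit was tested on simulated data. All 38 members could be named, and of other lists the called genes with the 4 largest changes in a comparison, with ATF4, DDIT3 and ASNS in every case. Members and lists were chosen with earlier results of these data known. Exon overlaps and the order of neighbouring genes came from GENCODE release 29 and promoters from RefSeq on GRCh38.p14, matched by symbol or synonym. Alternatives were pseudocounts of 0.1 and 5, no filter or a minimum of 5 TPM, a fit of only the libraries compared, a replicate block, 2 scalings between libraries (median ratio, upper quartile), removal of mitochondrial genome genes, and each library left out.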

Additional observations from a re-analysis of the deposited data

How the results depend on the processing

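The letters A and B pair nothing in the labels, and A-minus-B differences correlated between groups at 0.0263, -0.0203 and -0.0207 across genes. With a replicate block, 5942, 8381 and 7492 genes were called in the 3 comparisons (parental MAL3-101 against DMSO, resistant against parental MAL3-101, resistant against DMSO), and 13 cytosolic synthetases rose with MAL3-101 as before; 2 member calls were lost in each of the first and last, EARS2 and IARS2, and FARS2 and MARS2, and 0 in the other. Of 1710 recomputed member fold changes, 1543 kept direction and side of the threshold, 105 lost and 22 gained a call, and 40 changed sign, 0 of them a called gene. The calls of 12 of 15, 15 of 18 and 11 of 14 cytosolic genes held in each alternative, and of 2 of 6, 7 of 9 and 6 of 8 mitochondrial ones. The cause of each change below was not tested. Leaving out a resistant library did not move fold changes of parental MAL3-101 against DMSO, only the spread pooled over groups. Those of EARS2, WARS2, LARS2 and IARS2 stayed at 0.43, 0.30, -0.28 and -0.25. TPM gives no depth, so counting error limits low genes such as PARS2 by an unknown amount.

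In parental MAL3-101 against DMSO, the cytosolic genes that fell numbered 1 with no filter or with only the libraries compared and 0 to 3 without single libraries. The mitochondrial genes that rose numbered 1 with no filter, with only the libraries compared or with upper-quartile scaling and 1 to 2 without single libraries; those that fell numbered 1 to 3. The cytosolic median was 0.71 with a pseudocount of 5, 0.71 with median-ratio and 0.68 with upper-quartile scaling, and 0.70 to 0.79 without single libraries; the mitochondrial one was -0.11 and -0.13 with these scalings and -0.10 to -0.029. Called genes ran from 3158 without parental MAL3-101 library A to 7708. FARSB was at -0.0056 with upper-quartile scaling.

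In resistant against parental MAL3-101, median-ratio and upper-quartile scaling gave -0.52 and -0.51 for the cytosolic and 0.086 and 0.10 for the mitochondrial median, 0.071 and 0.085 for FARSA, 0.065 and 0.078 for PARS2 and 0.013 and 0.027 for SARS2. Without single libraries the mitochondrial median ran from -0.063 to 0.034, and 1 to 2 cytosolic genes were higher. In resistant against DMSO, the same scalings gave 0.25 and 0.24, and -0.036 and -0.044, for the medians, 0.011 and 0.0027 for PARS2 and 0.061 and 0.053 for TARS2. Without single libraries these medians ran from 0.16 to 0.21 and from -0.15 to -0.054, and called genes from 4955, without resistant library A, to 8675.

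Leaving out single libraries moved these uncalled values across 0. With MAL3-101 against DMSO, FARSA ran from -0.043 to 0.18, KARS from -0.099 to 0.039, QARS from -0.17 to 0.038, RARS from -0.15 to 0.019, HARS2 from -0.087 to 0.048, MARS2 from -0.19 to 0.0078, PARS2 from -0.15 to 0.10, SARS2 from -0.25 to 0.057, TARS2 from -0.047 to 0.022 and YARS2 from -0.14 to 0.024. In resistant against parental MAL3-101, AARS2 ran from -0.023 to 0.085, PARS2 from -0.12 to 0.051, SARS2 from -0.19 to 0.0046 and TARS2 from -0.014 to 0.016. In resistant against DMSO, FARSA ran from -0.081 to 0.14, LARS from -0.061 to 0.078, PARS2 from -0.18 to 0.072, TARS2 from -0.046 to 0.023, VARS2 from -0.021 to 0.035 and WARS2 from -0.059 to 0.11.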

Other observations

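Neighbours of the synthetase genes were counted in resistant cells against DMSO. For each gene, the 10 protein-coding genes on either side in the order of GENCODE release 29 were taken, a window chosen after these data had been seen. Over all tested genes 29.7% were lower and 20.9% higher in this comparison, 4502 and 3160 genes, and with median-ratio scaling 3843 and 3987. Of the tested neighbours of QARS on chromosome 3, 16 of 17 were lower, with a median log2 fold change of -0.98, and 17 of 17 were lower than in parental MAL3-101 cells, where 34.8% of all tested genes were. Of the neighbours of HARS on chromosome 5, 9 of 10 were lower than with DMSO, of HARS2, whose window overlaps that of HARS, 8 of 9, and of LARS2 on chromosome 3, 7 of 10. QARS, HARS, HARS2 and LARS2 were themselves lower, and HARS and HARS2 each counted among the lower neighbours of the other. The other members that were lower had a smaller share of lower neighbours, 4 of 9 for RARS, 3 of 16 for NARS2, 1 of 13 for FARS2, 3 of 16 for AIMP1 and 9 of 17 for AIMP2. Of the neighbours of YARS on chromosome 1, 11 of 15 were lower, and of EARS2 on chromosome 16, 10 of 13, while YARS and EARS2 did not pass the test against DMSO.

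Of the neighbours of YARS2 on chromosome 12, 0 of 12 were lower than with DMSO and 5 were higher, and of CARS2 on chromosome 13, 1 of 12 was lower and 7 were higher. Of the neighbours of RARS2 on chromosome 6, 0 of 11 were lower and 7 were higher, and of MARS2 on chromosome 2, 0 of 13 were lower and 9 were higher. For the 11 cytosolic members that were higher, the share of higher neighbours ran from 0 of 8 for GARS to 8 of 18 for MARS. Of the neighbours of FARSB and FARSA, 9 of 15 and 8 of 15 were higher, while neither gene passed the test against DMSO. All these counts are for resistant cells against DMSO, where 20.9% of all tested genes were higher and 29.7% lower. With MAL3-101 in parental cells, 5 of the 17 QARS neighbours fell and 0 rose, where 18.2% of all tested genes fell and 22.6% rose. DNA copy number was not analysed here.

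The spread between libraries A and B differed between groups. The median difference of cytosolic synthetases, as a percent of their mean, was 10.6% with DMSO, 2.05% in parental MAL3-101 libraries and 2.15% in resistant ones. That of mitochondrial synthetases was 8.36%, 6.04% and 3.21%. The fit pools the spread over the groups, so a gene has the same SE in each comparison, 0.11 for AARS. Where DMSO libraries differed more, that SE can be too small against DMSO and too large between the MAL3-101 groups.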
